A study of Homo sapiens with 4 samples.

Results

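Chromosomes 4, 13 and 18 carried 498 of the 8919 m5C peaks listed for PANC-1, a long-established cell line of human pancreatic carcinoma, with 164 in replicate 1 and 334 in replicate 2. The members are all peaks of both deposited lists on these chromosomes, except those of a stretch on the plus strand of chromosome 13 (57715056 to 57737787) and another on the minus strand of chromosome 18 (44542761 to 44559776). Those stretches held 8 replicate 1 and 6 replicate 2 peaks and were left out. In m5C MeRIP-seq, an antibody against 5-methylcytosine pulls down RNA fragments, which are sequenced along with unprecipitated input RNA, and a peak marks a stretch where bound reads exceed input. The 4 samples, 2 immunoprecipitated and 2 input, all came from PANC-1 cells given vesicles from cancer-associated fibroblasts beforehand, and each replicate gave 1 peak list. The labels used here name no cells without vesicles, so nothing below measures an effect of the vesicles. Whether the replicates were separate cultures is not stated, so their spread may be technical. The lists hold no read counts, so depth is unknown, and they pair no peak with a gene. No hg19 gene annotation was used here, so regions are given by chromosome, strand and 1-based hg19 position.

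5-methylcytosine is an RNA base written by NSUN-family methyltransferases and, on some transfer RNAs, by TRDMT1. In messenger RNA it is bound by reader proteins such as ALYREF, which acts in nuclear export, and YBX1, which acts in transcript stability. A peak can be seen only where a transcript is made, so the number of peaks on a chromosome can depend on its active genes as well as on methylation. Gene activity was not examined here, and this dependence was not tested. A chromosome with long gene deserts can therefore have wide stretches without messenger RNA peaks. Whether the empty stretches described below are such deserts was not tested.

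By the RefSeq table of assembly GRCh38.p14 these are gene-poor chromosomes. Chromosome 13 had 2.96 protein-coding genes per Mb up to its last gene, chromosome 18 had 3.36 and chromosome 4 had 4.05, the lowest 3 of the 23 chromosomes other than Y. The other 20 ranged from 4.93 to 24.8, with a median of 5.98. These densities count length from the start of the numbering, on chromosome 13 including its short arm. The peak densities that follow leave out the part before the first peak, so the 2 kinds of density rest on unlike lengths. Peak density, counted between the first and the last listed peak, was also low in replicate 2. It was 0.893 peaks per Mb on chromosome 18, 0.917 on chromosome 13 and 0.943 on chromosome 4. The other 20 chromosomes had 1.12 to 7.73 in that list. In replicate 1 chromosomes 4 and 13 were again the sparsest, with 0.366 and 0.369 peaks per Mb, but chromosome 18 had 0.777 and ranked 6 from the bottom among 23.

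Set against the number of genes, the 3 chromosomes lay close together in replicate 2 and parted in replicate 1. In replicate 2 they had 23.1 (chromosome 4), 25.7 (chromosome 13) and 25.6 (chromosome 18) peaks per 100 protein-coding genes, within the range of 21.6 to 38.0 over the other 20 chromosomes. In replicate 1 chromosome 4 had 8.96 and chromosome 13 had 10.4, both below the other 20 (11.7 to 21.8), whereas chromosome 18 had 22.2, above all of them. The ratio of replicate 2 to replicate 1 peaks was 2.58 on chromosome 4, 2.49 on chromosome 13 and 1.15 on chromosome 18, against 1.42 to 2.41 on the other 20 chromosomes and 1.81 over the whole lists. With the left-out stretches counted, chromosome 13 came to 2.28, inside that range, and chromosome 18 to 1.14. Gene numbers come from another assembly than the peaks and count genes whether or not PANC-1 expresses them. With 1 list per replicate these are descriptions, with no test.

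**Figure D1:**
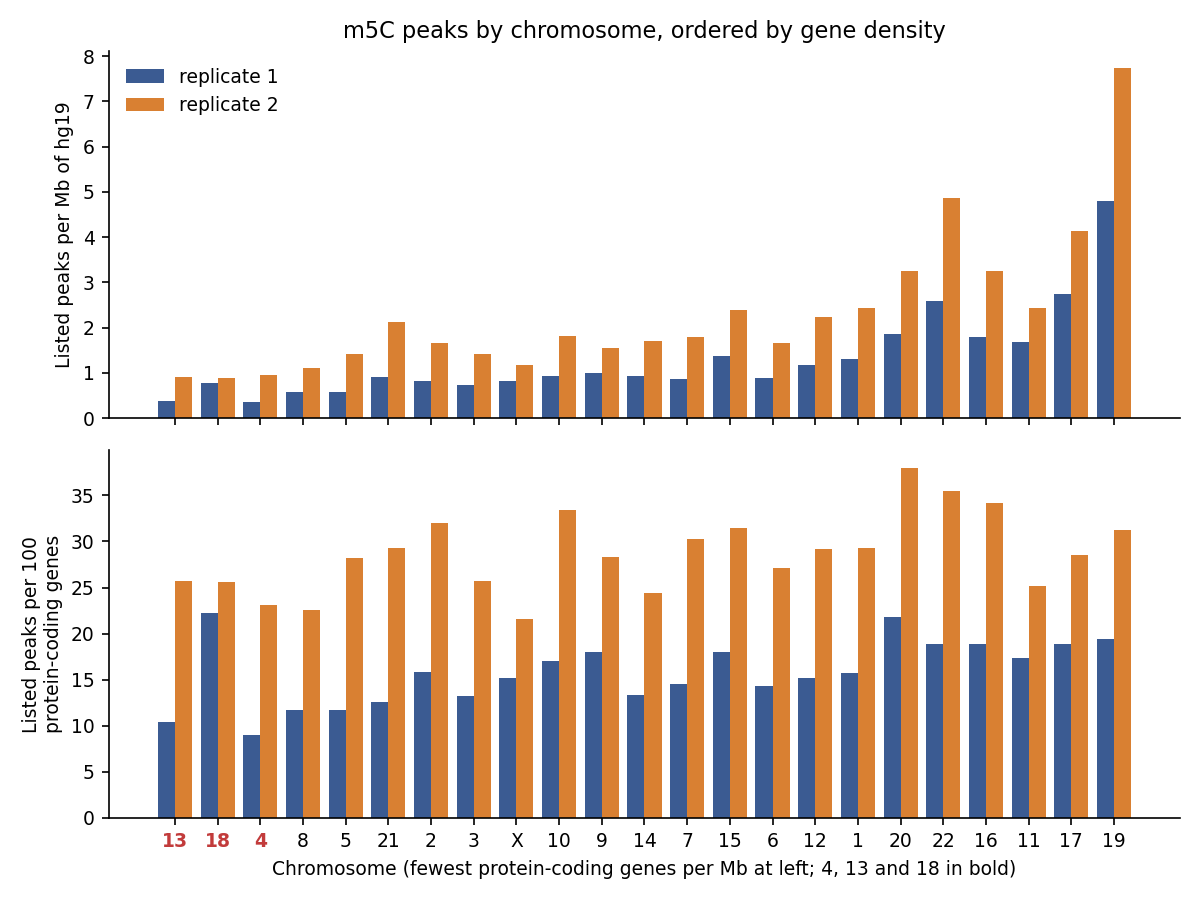
Bars show listed m5C peaks per Mb of hg19 between the first and last peak (top) and per 100 protein-coding genes of GRCh38.p14 (bottom) for 23 chromosomes ordered by gene density, with replicate 1 in blue and replicate 2 in orange. Chromosomes 13, 18 and 4 stand at the left, and the replicate 1 bar of chromosome 18 rises to 22.2 peaks per 100 genes while those of 13 and 4 stay at 10.4 and 8.96.

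On chromosome 4 the peaks gathered at the start of the sequence. Its first 3 Mb held 42 of 247 peaks (17.0%), 17 in replicate 1 and 25 in replicate 2, and 3 of the 8 overlapping pairs of this chromosome. The fullest 1 Mb window of all 3 chromosomes ran from 1 to 2 Mb, with 11 peaks of replicate 1 and 9 of replicate 2, 12 of them on the plus strand. The next window, from 2 to 3 Mb, held 5 and 7 peaks, and the first, from 0 to 1 Mb, held 1 and 9. Over the first 5 Mb after the first peak the share was 19.0%, where the other 20 chromosomes had a median of 5.48% (range 1 to 25.4), so chromosome 4 lay inside their range. The last 5 Mb held 3.64%. The first peak was a replicate 2 peak on the plus strand from 377930 to 378279, and the last was a replicate 2 peak on the plus strand from 189060869 to 189061120.

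Within that crowded start, 4 clusters held 3 or 4 peaks, a cluster being peaks of either list on one strand with gaps of up to 10 kb. The one from 1950412 to 1955164 on the plus strand alternated between lists. Replicate 2 placed 134 and 244 bp peaks there with scores of 82.33 and 95.94, and replicate 1 placed 110 and 204 bp peaks that both had the score 3100, with no overlap between lists. The scores are the authors' own, of unstated scale, and are read only within a list. A score of 3100 is the most frequent of replicate 1, and 82.33 stood at the percentile 10.7 of replicate 2. A second cluster of 4 ran from 2824662 to 2845751 on the plus strand over 21.1 kb, with a single replicate 1 peak (295 bp, score 3100) between replicate 2 peaks of 103, 568 and 168 bp. The last of these had a score of 1141.29, at the percentile 92.3 of its list. The cluster from 1219663 to 1222041 on the plus strand held 3 replicate 1 peaks and none of replicate 2. The one from 1713601 to 1722523 on the minus strand held 1 replicate 1 peak of 164 bp and 2 replicate 2 peaks of 145 and 332 bp.

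Away from its start, the fullest window of chromosome 4 ran from 140 to 141 Mb, with 1 replicate 1 peak and 8 replicate 2 peaks, named after its values were seen. It holds the widest member, a replicate 2 peak of 900 bp on the minus strand from 140811138 to 140812037 with a score of 227.77 (percentile 42.5). The following window, also named after its values were seen, added 2 and 4 peaks, all 6 on the minus strand. A fuller one than that, from 39 to 40 Mb, held 1 and 6 peaks, 6 of the 7 on the minus strand. The highest score of replicate 2 on this chromosome, 2571.66, belonged to a 290 bp peak on the minus strand from 105412168 to 105412457 that overlapped a replicate 1 peak. The next 2 scores, 1963.09 (plus strand, 88035585 to 88036196) and 1809.35 (minus strand, 114900158 to 114900670), belonged to peaks with no overlap, as do most scores of the list. In replicate 1, 33 peaks tied at 3100. The widest of them was 566 bp on the plus strand from 184634182 to 184634747, and the next were 444 bp on the minus strand from 44449673 to 44450116 and 339 bp on the plus strand from 1346858 to 1347196.

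Chromosome 13 is acrocentric, and its short arm of ribosomal RNA gene arrays has no sequence in hg19, so positions begin far into the numbering. Its first peaks were a replicate 2 peak on the plus strand from 20246062 to 20246324 and a replicate 1 peak on the minus strand from 20987421 to 20987526. Here the peaks gathered at the other end, where the last was a replicate 2 peak on the plus strand from 115091184 to 115091411 (score 365.65). The last 5 Mb before the final peak held 25 of 122 peaks (20.5%), against a median of 9.68% on the other 20 chromosomes (range 1.29 to 48.0). The fullest windows ran from 113 to 114 Mb with 3 and 6 peaks of replicates 1 and 2, and from 114 to 115 Mb with 2 and 5. Next came 3 windows of 6 peaks, from 25 to 26, 28 to 29 and 111 to 112 Mb. All 5 windows had more replicate 2 than replicate 1 peaks, and none held an overlapping pair. Among the members no cluster of this chromosome had more than 2 peaks, the left-out stretch not being counted.

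In replicate 1, 16 of the 35 chromosome 13 peaks (45.7%, 95% Wilson interval 30.5 to 61.8) had the score 3100, against 51.7% on the other chromosomes (49.96 to 53.5). In the same list 5 (14.3%, 6.26 to 29.4) scored under 50, against 5.32% elsewhere (4.58 to 6.19). Chromosomes 4 and 18 had lower shares under 50, 2.90% and 1.67%, and all replicate 1 members together had 4.88% (2.49 to 9.33). The share elsewhere pools the other chromosomes, so its interval does not show their spread. No replicate 2 peak of any chromosome scored under 50, the lowest score of that list being 50.13. The lowest score on chromosome 13, 6.28, belonged to a peak of 493 bp on the minus strand from 77460048 to 77460540, singled out after its value was seen. The widest replicate 1 peak, 616 bp on the minus strand from 39611397 to 39612012, scored 3100. The next widest at that score measured 332 bp (plus strand, 88328862 to 88329193) and 271 bp (plus strand, 93879153 to 93879423). In replicate 2 the top scores were 2588.09 (minus strand, 36048747 to 36048980), 1977.64 (minus strand, 48660485 to 48660588) and 1729.13 (minus strand, 111213839 to 111214053). The widest replicate 2 peak measured 570 bp, on the minus strand from 107211419 to 107211988, with a score of 746.76.

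Chromosome 18 differed between the lists in where its peaks lay. In the window from 72 to 73 Mb, its fullest, replicate 1 placed 9 peaks and replicate 2 placed 1. From 48 to 49 Mb the counts were 6 and 1, while from 77 to 78 Mb they were 4 and 5, all 9 of these on the plus strand. From 21 to 22 Mb, a window named after its values were seen, replicate 1 placed none and replicate 2 placed 6. Among 5 Mb windows, those from 45 to 50 and from 70 to 75 Mb, also singled out after the counts were seen, held 23 of the 60 replicate 1 peaks (38.3%) and 4 of the 69 replicate 2 peaks (5.80%). Elsewhere on the chromosome the counts were 37 and 65, a ratio of 1.76, where the whole lists had 1.81. These windows were chosen for the difference in their counts, so it carries no test. Taking them out raises the ratio by construction, so nothing is read from its value elsewhere.

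The replicate 1 peaks of those windows were not narrow. From 70 to 75 Mb the 15 peaks had a median width of 214 bp, 7 scored 3100 and 8 lay on the plus strand. They included the highest replicate 1 score of the 3 chromosomes, 3127.78, on the plus strand from 72187360 to 72187578. From 45 to 50 Mb the 8 peaks had a median width of 211 bp and 1 scored 3100. They included the widest replicate 1 member, 691 bp on the minus strand from 48722937 to 48723627, with a score of 468.11 (percentile 19.9). Close neighbours of nearly equal width lay 271 bp apart on the minus strand from 48703099 to 48703782, measuring 203 and 210 bp. Another pair lay 417 bp apart on the plus strand from 48608913 to 48609741, measuring 212 and 200 bp.

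Among the members of chromosome 18, the left-out stretch not counted, the only cluster of 4 peaks ran from 72998037 to 73001199 on the plus strand. It held 3 replicate 1 peaks of 200, 314 and 431 bp and 1 replicate 2 peak of 292 bp that overlapped the 314 bp one. A cluster of 3 on the minus strand, from 28654679 to 28660271, held replicate 1 peaks of 195 and 33 bp, both at 3100, and a replicate 2 peak of 210 bp that began 216 bp beyond the narrow one. Replicate 2 had its own dense spot on the plus strand between 8784151 and 8825795, named after its values were seen. Its 4 peaks had scores of 902.54, 2041.44, 138.98 and 2484.49. The last of these and the first-ranked replicate 2 peak of the chromosome, 80 bp on the plus strand from 44015252 to 44015331 with the score 3100, had no overlap with replicate 1, nor had the 2159.04 peak on the plus strand from 2913065 to 2913139, as is the case for most replicate 2 peaks. The widest replicate 2 peak here was 656 bp, on the plus strand from 76756891 to 76757546. The outermost peaks were both of replicate 1 and on the plus strand, from 580810 to 581110 and from 77805774 to 77805927, both with the score 3100.

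**Figure D2:**
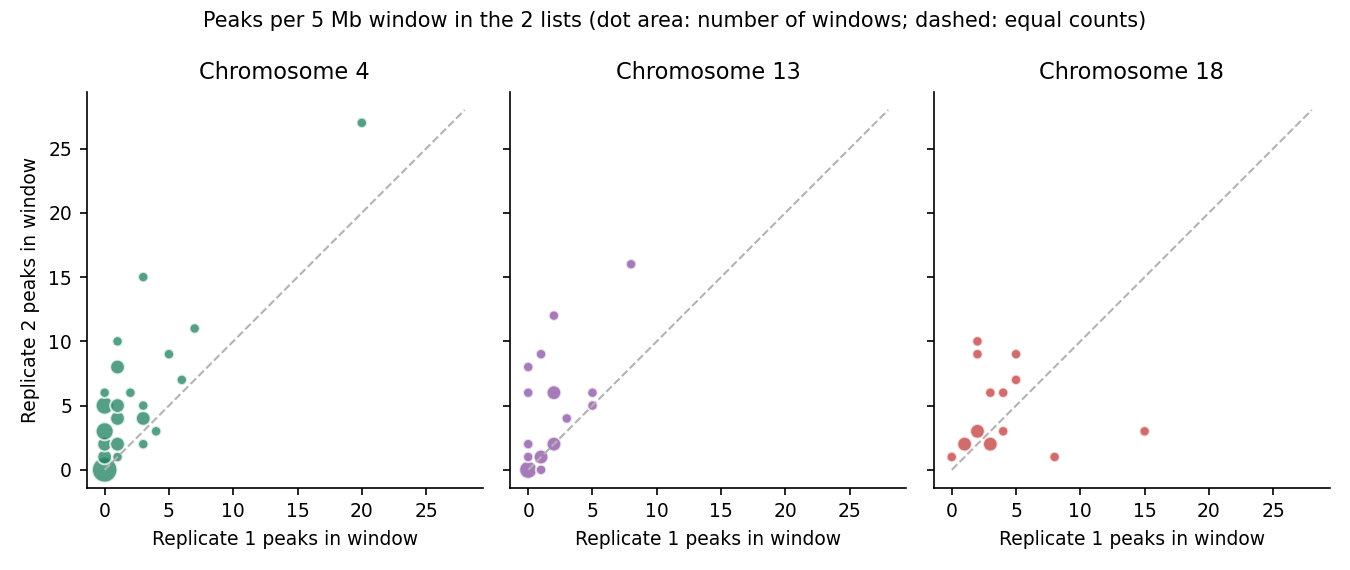
Each dot is a pair of counts in a 5 Mb window, with replicate 1 peaks on the horizontal and replicate 2 peaks on the vertical axis, dot area giving the number of windows and the dashed line equal counts. Most windows of chromosomes 4 and 13 lie above the line, and on chromosome 18 the windows with 15 against 3 and 8 against 1 peaks lie far below it.

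The lists were also set side by side in 5 Mb windows. Spearman's rho between the lists was 0.60 over 38 windows of chromosome 4, 0.50 over 20 of chromosome 13 and 0.22 over 16 of chromosome 18. Windows of a chromosome share its layout of genes, so these are descriptions across windows and not replicates. Replicate 1 had more peaks than replicate 2 in 8 of the 74 windows, 5 of them on chromosome 18. In 16 windows only replicate 2 had peaks, in 1 only replicate 1, and 9 had none from either list.

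Most members stood alone. At a link distance of 10 kb, 375 of the 432 clusters held a single peak, 51 held 2, 3 held 3 and 3 held 4. None was larger, but the left-out stretches, with 6 peaks on chromosome 13 and 8 on chromosome 18, were not counted. The 123 peaks in clusters of 2 or more made up 24.7% of members, or 26.8% with the left-out stretches counted. On the other chromosomes, from which nothing was left out, the share was 38.7% and the largest cluster held 27 peaks. The share was not low throughout. In replicate 1 it was 42.03% on chromosome 4 (31.1 to 53.8), 30% on chromosome 18 (19.9 to 42.5) and 22.9% on chromosome 13 (12.1 to 39.02), against 42.6% on the other chromosomes (40.9 to 44.4). In replicate 2 it was 19.7%, 30.4% and 13.8% on chromosomes 4, 18 and 13, against 36.4% elsewhere. Of the 51 clusters of 2, 21 joined the lists, 11 were of replicate 1 alone and 19 of replicate 2 alone. Of the 147 clusters with a replicate 1 peak, 17.7% also held replicate 2, against 27.9% on the other chromosomes. By chromosome the share was 24.6% on 4, 17.6% on 13 and 9.62% on 18.

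Long stretches held no peak of either list on either strand. On chromosome 4 the longest ran from 25270792 to 38091552 (12.8 Mb), followed by 57976552 to 68355727 (10.4 Mb) and 177241326 to 184186154 (6.94 Mb). On chromosome 13 they ran from 61141785 to 72440354 (11.3 Mb), from 79209334 to 88328861 (9.12 Mb) and from 53239869 to 60590046 (7.35 Mb). The last of these contains the left-out stretch with its 6 peaks and so is empty only of the peaks counted here. A single replicate 1 peak of 332 bp, from 88328862 to 88329193 on the plus strand with the score 3100, separated the second from a further 5.19 Mb. On chromosome 18 the longest were shorter, from 34824920 to 39593405 (4.77 Mb), from 24128387 to 28654678 (4.53 Mb) and from 14850282 to 19095377 (4.25 Mb). The last spans the centromere of that chromosome, by general knowledge of the assembly and not from a file.

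Stretches over 1 Mb took up 80.6% of the span on chromosome 4, 70.6% on chromosome 13 and 74.4% on chromosome 18, against a median of 60.7% on the other 20 chromosomes (range 17.96 to 80.9). Of 1 Mb windows, 103 of 190 were empty on chromosome 4, 49 of 96 on chromosome 13 and 28 of 78 on chromosome 18. As shares these were 54.2%, 51.04% and 35.9%, and the other 20 chromosomes reached at most 50.3%. The median distance between neighbouring peaks was 152 kb on chromosome 4, 301 kb on chromosome 13 and 156 kb on chromosome 18, while the other 20 ranged from 24.4 to 108 kb. The longest stretches of the other 20 chromosomes ran from 2.85 to 23.5 Mb with a median of 7.84 Mb. Of these 20, 3 had a longer one than chromosome 4, 6 a longer one than chromosome 13 and 18 a longer one than chromosome 18.

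**Figure D3:**
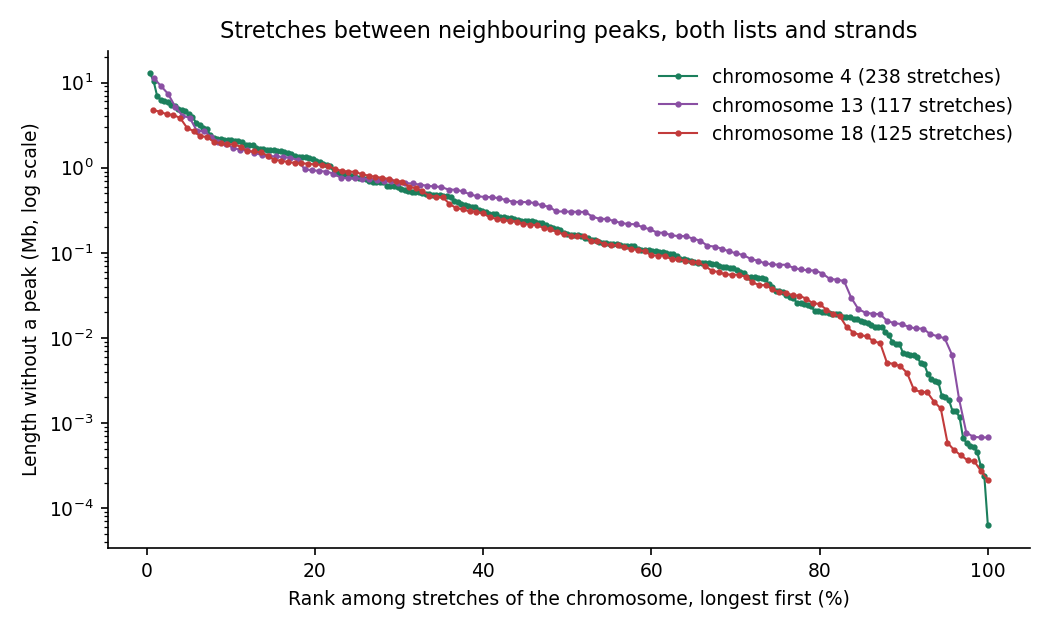
Lengths without a peak (Mb, log scale) are plotted against rank as a percent of the stretches of the chromosome, longest first, both lists and strands together. Chromosomes 4 and 13 start above 10 Mb and chromosome 18 at 4.77 Mb. At the same middle percent of rank the chromosome 13 line runs above the others, its middle stretch measuring 0.303 Mb.

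Peak names carry numbers that increase along each chromosome, and most numbers do not appear in the deposited lists. Between the listed peaks of a list that flank the 3 longest stretches of each chromosome, replicate 1 skipped 14 to 212 numbers and replicate 2 skipped 73 to 244. Per Mb this was 3.26 to 7.64 in replicate 1 and 13.8 to 22.4 in replicate 2. Over the whole chromosomes the unlisted numbers came to 6.60, 7.05 and 9.03 per Mb on chromosomes 4, 13 and 18 in replicate 1, and to 24.0, 26.0 and 32.2 in replicate 2. The flanked stretches lay below the value of their chromosome in 8 of 9 cases in replicate 1, the exception being the second of chromosome 4 with 7.64, and in 9 of 9 in replicate 2. The flanks of a list can reach well beyond the stretch itself, to 27.7 Mb in that exception, so the numbers are not placed inside the stretches. Nor are the cases all separate. In replicate 1 the flanks of the first chromosome 13 stretch (14.7 Mb apart) lie within those of the third (27.4 Mb apart), so the skipped numbers are shared. What the unlisted numbers stood for is not given in the sources used here.

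Median widths lay between 160 and 206 bp on the 3 chromosomes in replicate 1 and between 108 and 144.5 bp in replicate 2, without overlap. Replicate 1 members had a median width of 185.5 bp (interquartile range 92 to 266.5) and replicate 2 members 128 bp (64 to 242.5), against 166 and 141 bp on the other chromosomes. The gap was widest on chromosome 13, at 206 bp in replicate 1 and 108 bp in replicate 2. The medians were 177 and 144.5 bp on chromosome 4 and 160 and 117 bp on chromosome 18. Peaks under 50 bp made up 12.2% of replicate 1 members (95% Wilson interval 8.03 to 18.1) and 18.6% of replicate 2 members (14.8 to 23.1), and the intervals overlap those of the other chromosomes (12.05 to 14.5 and 14.5 to 16.4). Wilson intervals here cover counting error only, and peaks close together are not independent.

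At the narrow end, 7 replicate 1 and 13 replicate 2 members measured under 20 bp. None overlapped the other list. Over the whole lists 13.6% of replicate 1 and 7.49% of replicate 2 peaks did, but those shares cover peaks of all widths. Narrow peaks overlap less readily for their length, so nothing is read from a count of 0 among these few. Of the 7, 4 had the score 3100, among them a peak of 4 bp (chromosome 4, minus strand, 5624264 to 5624267). The narrowest replicate 2 member measured 2 bp (chromosome 4, minus strand, 88239587 to 88239588), with a score of 398.57 (percentile 63.3). A width of exactly 200 bp was held by 9 peaks of each list, 5.49% of replicate 1 and 2.69% of replicate 2 members, where the other chromosomes had 6.16% and 1.81%.

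**Figure D4:**
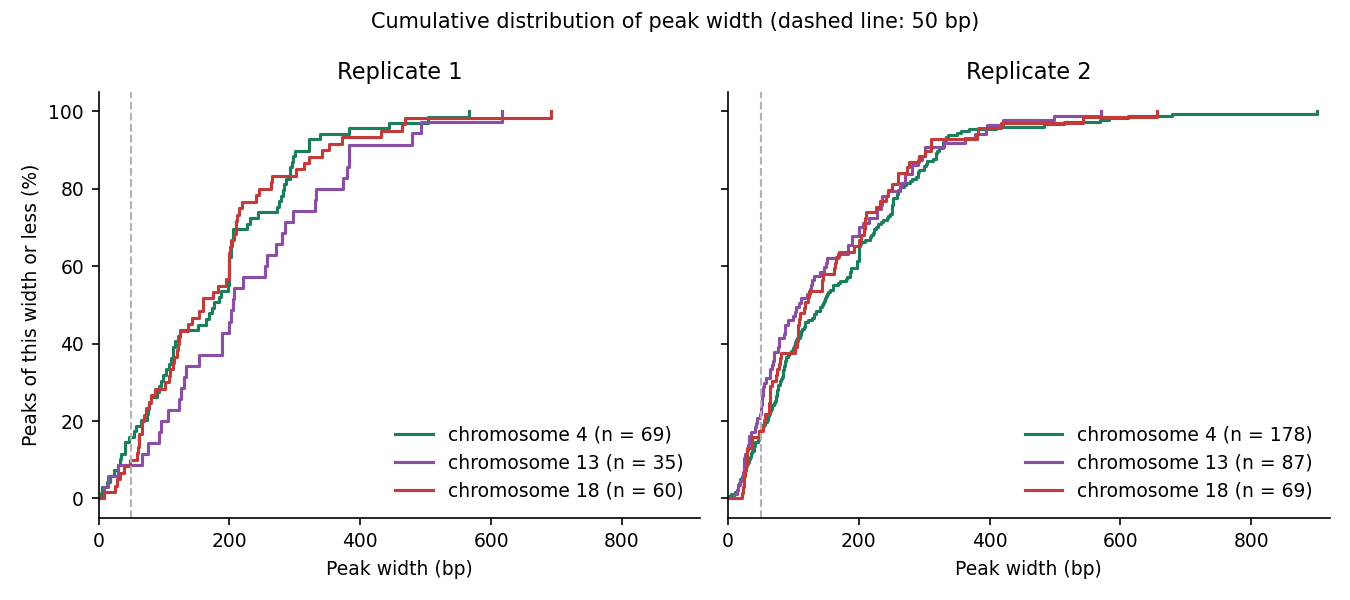
Cumulative share of peaks (%) against peak width (bp) for chromosomes 4, 13 and 18 in replicate 1 (left) and replicate 2 (right), with a dashed line at 50 bp. In replicate 1 the chromosome 13 curve lies to the right, with a median of 206 bp, and in replicate 2 the curves run close together with medians of 108 to 144.5 bp.

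Scores placed the members near the middle of their lists. In replicate 1, 48.2% of members (40.7 to 55.8) scored 3100 or more, against 52.3% on the other chromosomes (50.5 to 54.1). The shares were 47.8% on chromosome 4, 45.7% on chromosome 13 and 50% on chromosome 18. The median replicate 1 score was 2868 among members and 3100 elsewhere, a step made by the share at 3100 lying just under rather than just over 50%. Among scores below 3100 the medians were 637 and 656. In replicate 2 the median was 304 among members and 280 elsewhere, and 51.5% of members (46.2 to 56.8) lay at or above the median of the whole list. Width and score showed next to no relation across members, with Spearman's rho of -0.08 in replicate 1 and 0.01 in replicate 2.

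On chromosome 18 the plus strand held 34 of 60 peaks in replicate 1 (56.7%, 44.1 to 68.4) and 45 of 69 in replicate 2 (65.2%, 53.4 to 75.4). The peaks left out of this chromosome, 4 in each list, all lay on the minus strand. Counting them gave 34 of 64 (53.1%, 41.1 to 64.8) and 45 of 73 (61.6%, 50.2 to 71.9), an alternative chosen after the values were seen. Over the other chromosomes the shares were 50.8% and 51.7% (50.4 to 53.1 in replicate 2). The difference was not tested, since neighbouring peaks can come from 1 transcript.

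The lists shared few members. Of the 164 replicate 1 members, 15 overlapped a replicate 2 peak on the same strand (at least 1 bp), 9.15% (5.62 to 14.5), beside 13.6% of the whole list and 13.8% on the other chromosomes (12.6 to 15.1). From replicate 2, 15 of 334 overlapped, 4.49% (2.74 to 7.28), beside 7.49% of the whole list and 7.63% elsewhere (6.95 to 8.37). In both lists the share was lower than over the whole list, and the intervals overlapped those of the other chromosomes. By chromosome, 8 of 69 replicate 1 peaks overlapped on chromosome 4 (11.6%), 4 of 35 on chromosome 13 (11.4%) and 3 of 60 on chromosome 18 (5%, 1.72 to 13.7). The left-out stretches held a further 3 overlapping replicate 1 peaks, all on chromosome 18. With a reciprocal overlap of 50%, 8 members of each list remained, 4.88% and 2.40%, beside 7.65% and 4.23% of the whole lists. No member overlapped a peak of the other list on the opposite strand.

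Of the 15 pairs, 2 were identical at both ends. The first was a 300 bp region (chromosome 4, minus strand, 39979077 to 39979376), scored 2855.13 by replicate 1 and 421.57 by replicate 2. It was also the longest overlap. The second was a 123 bp region (chromosome 18, plus strand, 33161704 to 33161826), with 3100 and 227.15. Of the pairs, 1 reached the score that bounds the top 25% in both lists. In replicate 1 that score is the tied 3100, reached by 52.1% of the list, so there it sets apart no top 25%. This pair lay on the plus strand of chromosome 4. Its replicate 1 peak ran from 1346858 to 1347196 (3100). Its replicate 2 peak, from 1347105 to 1347201 (950.90), covered the last 92 bp of the replicate 1 peak and ended 5 bp beyond it. The other 2 longest overlaps were 223 bp at the replicate 1 peak from 77996625 to 77996856 (chromosome 4, minus strand, 3100 and 185.94) and 206 bp at the one from 72998591 to 72998904 (chromosome 18, plus strand, 340.33 and 592.77).

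The remaining 10 pairs are given because there are only 15 in all, a choice made after their values were seen. Beginning and end follow the coordinates, not the strand. On chromosome 4 the replicate 1 peaks began at 778817 and 105412292 on the minus strand and at 1873157, 6293006 and 99916788 on the plus strand. The pair at 105412292 combined a replicate 1 score of 752.05 with the 2571.66 named above, and its replicate 2 peak started 124 bp before the replicate 1 peak and ended 337 bp before it. The pair at 778817 scored 2844.49 and 322.19, and the pair at 99916788 scored 308.26 and 724.63 with an overlap of 33 bp. The pair at 1873157 ended on the same base in both lists, 1873269, with scores of 104.67 and 487.25. The pair at 6293006 also shared its end, 6293094, with 3100 and 388.43. On chromosome 13 the pair at 20987421 on the minus strand began on the same base in both lists, with 3100 and 534.77. The pair at 36705327 on the minus strand ended together at 36705514, with 3100 and 208.80. The pairs at 41656840 and 98086475, both on the plus strand, shared no edge and scored 3100 and 237.43, and 202.47 and 129.43. On chromosome 18 the pair at 5415817 on the minus strand began together, but the replicate 1 peak measured 38 bp and the replicate 2 peak 241 bp, with 3100 and 67.44.

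**Figure D5:**
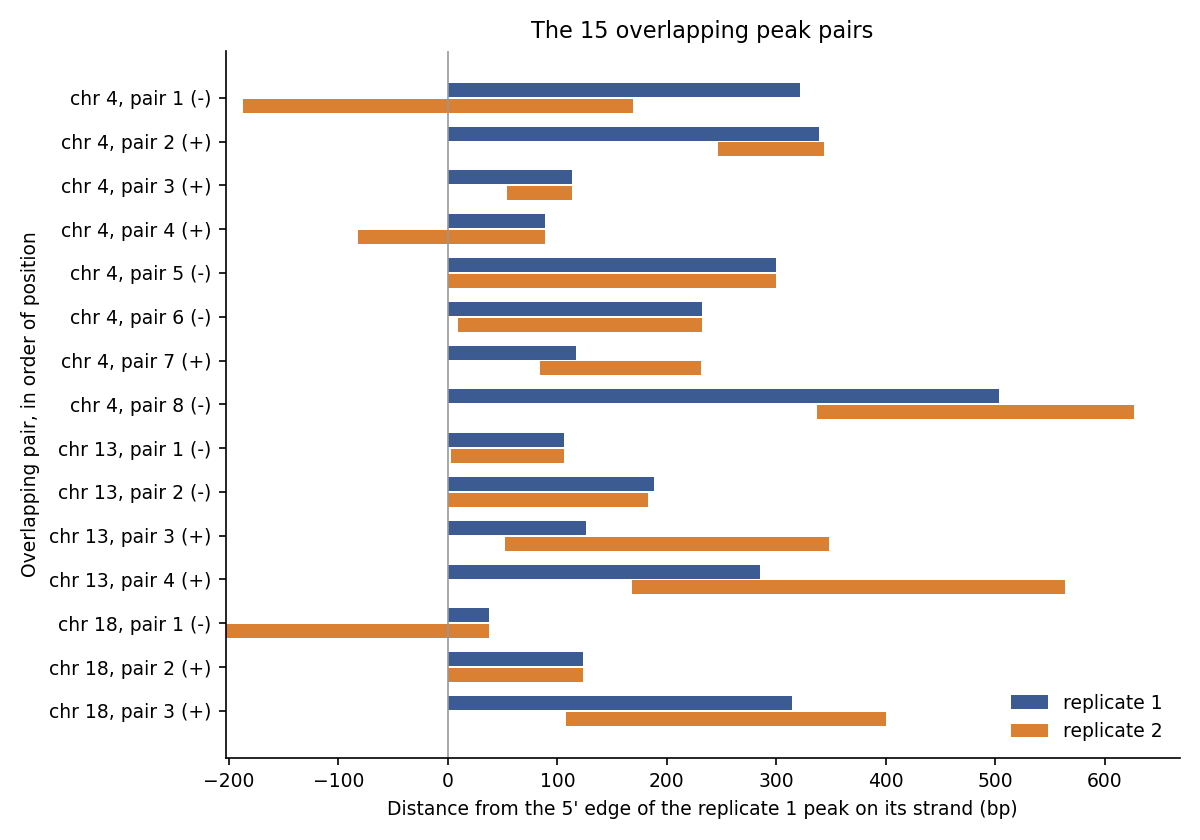
Each row is an overlapping pair, with the replicate 1 peak in blue and the replicate 2 peak in orange drawn to scale from the 5′ edge of the replicate 1 peak on its strand (bp). In 8 of the 15 rows the bars share at least one edge, and in 2 they coincide.

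Across these pairs 8 (53.3%) began or ended on the same base, and the other chromosomes had 52.5% of their 417 pairs. The overlaps measured 33 to 300 bp with a median of 117 bp, where the other chromosomes had a median of 144 bp. A replicate 1 score of 3100 was held by 8 of the 15, and 9 of the 15 replicate 2 peaks scored at or above the median of their list. On the other chromosomes 52.8% and 54.7% of pairs did so, close to these counts. Shared replicate 2 members had a median width of 223 bp and the 319 others 123 bp, while in replicate 1 the medians were 188 and 184 bp. Wide peaks overlap more readily for their length, so no test of width is given.

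Nearby peaks were counted next. Within 10 kb on the same strand, overlaps included, 18.3% of replicate 1 members (13.1 to 24.9) had a replicate 2 peak, against 29.2% on the other chromosomes (27.6 to 30.9). Within 100 kb the shares were 32.3% (25.6 to 39.8) and 59.03% (57.3 to 60.8), and within 1 Mb 70.7% and 93.0%. Chromosome 18 was lowest at 100 kb, with 21.7%, followed by chromosome 4 with 36.2% and chromosome 13 with 42.9%. Seen from replicate 2, 17.96% of members (14.2 to 22.4) and 40.4% of other peaks (39.1 to 41.7) had a replicate 1 peak within 100 kb. At 1 kb the replicate 1 shares lay closer, at 14.6% (10.04 to 20.9) and 17.3% (15.99 to 18.7). Replicate 2 placed 0.893 to 0.943 peaks per Mb on these chromosomes and 1.12 to 7.73 on the other 20, and the part of that density in the distances was not tested.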

How the data were processed

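m5C MeRIP-seq was made from 2 immunoprecipitated and 2 input samples, and each of the 2 deposited lists is named in the labels of the pair with its replicate number. Per the submitters' processing notes, reads were trimmed with cutadapt 1.9.3 and positions are hg19. The aligner, peak caller version, annotation and thresholds are not stated in the sources at hand, and each could change how many peaks are listed. The score of each peak was deposited by the authors on an unstated scale and was read only within its list. Depth is unknown.

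Starts were read as 0-based and printed 1-based. Overlaps, clusters and stretches were computed in Python 3.11.15 with pandas 2.3.3, numpy 2.4.6 and scipy 1.17.1. Overlapping pairs and clusters equalled those of bedtools 2.31.1, and the code found 40 of 40 overlaps planted among 160 simulated replicate 1 peaks. Shares have 95% Wilson intervals. No test was run, because both lists belong to 1 condition. A score percentile counts tied peaks at their mean rank. Gene numbers per chromosome are protein-coding entries of RefSeq GRCh38.p14.

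The chromosomes, the left-out stretches and the rules were chosen with earlier results of these data known. Named per chromosome are the 3 fullest 1 Mb windows with ties up to 5, and clusters of 4 or more peaks or of 3 with both lists. Also named are the 3 longest stretches, any over 10 Mb, and the first and last peak. Of each list the widest and the 3 highest-scoring peaks are named, with ties broken by width. Pairs are named if identical at both ends, if both scores reach the bound of the top 25% of their list, or if among the 3 longest overlaps. Alternatives changed the overlap rule, the score threshold, the minimum width, the link distance, the left-out stretches and the replicates used.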

Additional observations from a re-analysis of the deposited data

How the results depend on the processing

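Keeping only peaks whose score reached the list median, members fell to 79 in replicate 1 and 172 in replicate 2, and density to 0.219 and 0.477 peaks per Mb from 0.455 and 0.926, since that filter removes about the lower part of each list by its construction. The overlapping share went to 3.797% of replicate 1 and 1.74% of replicate 2 with that filter. Both peaks of a pair must pass the filter, and the filtered share over the whole lists was not computed. Nothing particular to these chromosomes is therefore read from that fall. With a reciprocal overlap of 50% the share was 4.88% and 2.40%, beside 7.65% and 4.23% of the whole lists. The share of peaks in clusters was 20.5% at a link distance of 5 kb and 35.1% at 20 kb, and 13.2% to 19.5% with 1 replicate left out. Without 1 replicate the longest stretch lay between 12.8 and 27.7 Mb on chromosome 4, 14.3 and 27.4 Mb on chromosome 13, and 6.65 and 10.6 Mb on chromosome 18, each time longest when replicate 2, the longer list, was left out. Without replicate 1 alone these lengths stayed within 1.5 times their value. The remaining 24 of 42 alternative values stayed within the tolerance of their result, including those with the left-out stretches counted. The tolerance was 1.5 times for counts, densities and lengths, the 95% Wilson interval for shares and the SD of the 2 lists for medians. No paired analysis was possible because each list already combines the immunoprecipitated and input sample of its replicate number and no result comes from a test. Depth sets no stated limit here, as the lists hold no counts.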
